A study of Mus musculus with 8 samples.

Results

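The genes described here encode Fc receptors, which bind the constant part of antibodies, and the proteins that carry or brake their signal: Fcer1g, Fcgr1, Fcgr2b, Fcgr3, Fcgr4, Fcgrt, Syk, Lyn, Inpp5d and Ptpn6. They were chosen by name, and all 10 symbols were found once each among the 38392 genes of the deposited expression table. The study sequenced RNA of eosinophils of 2 tissues, bone marrow and small intestine, from untreated wildtype female mice of the strain labelled C57/BL6. Each tissue had 4 libraries, and the sorted cells went straight into RNA isolation. No allele, transgene or agent differed between the groups, and the labels give no age. Both sorts took cells with CD11b, SiglecF and high side scatter. Bone marrow cells were also gated as negative for Ly6G and Ly6C, and intestinal cells as negative for MHC-II. According to the methods, intestinal cells were released by warm digestion with collagenase and enriched on anti-CD11b beads, while bone marrow was flushed and used without either step, so tissue and handling cannot be told apart. Cells were incubated with an antibody against CD16/CD32, the proteins of Fcgr3 and Fcgr2b, before they were stained.

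Most Fc gamma receptors on myeloid cells are activating. Fcgr1, Fcgr3 and Fcgr4 encode ligand-binding chains that pair with the Fc receptor gamma chain, the product of Fcer1g, whose cytoplasmic tail holds an immunoreceptor tyrosine-based activation motif (ITAM). When an antibody complex clusters the receptors, kinases of the SRC family such as Lyn phosphorylate the ITAM, and the kinase Syk docks there and passes the signal on. Fcgr2b encodes the inhibitory receptor, whose inhibitory motif recruits the lipid phosphatase SHIP1, the product of Inpp5d. Ptpn6 encodes SHP1, a tyrosine phosphatase through which other inhibitory receptors act. Fcgrt encodes the neonatal Fc receptor, which pairs with beta-2 microglobulin and carries IgG through and across cells. Eosinophils are granulocytes that bear receptors for IgG and, among other responses, release granule proteins when these receptors are engaged.

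Between 11508002 and 21289164 reads fell in genes in each library. Values are normalised read counts, which are whole reads recovered from the deposited values and divided by the size factor of the library, which corrects for its depth. Libraries carry the names of the deposited columns, in which BM is bone marrow and SI small intestine. The eosinophil label was checked against 10 marker genes, all of them detected. Of the 10, 5 were called lower in small intestine, 4 higher and 1 not called, with a median difference of −1.85 on the log2 scale. Their summed level was 2703 to 4731 in bone marrow libraries and 33421 to 46193 in intestinal ones. Alox15 was the highest and Prg3 the lowest of the list on average. Most of the intestinal sum was Alox15 (19775 ± 2245, mean ± SD, n = 4) and Ccr3, so its rise is not that of the list as a whole. Siglecf (579.9 ± 66.0 in bone marrow and 3076 ± 516 in small intestine, mean ± SD, n = 4 each) and Ccr3 (70.9 ± 25.7 and 16351 ± 2623) were higher in small intestine, and the granule protein genes Epx (349.9 ± 40.2 and 20.6 ± 9.06) and Prg2 (1831 ± 396 and 147 ± 40.7) were higher in bone marrow. In the bone marrow libraries, genes known as markers of other marrow cells took far more reads than these. Which cells carried these transcripts was not tested. The sum of 12 neutrophil and neutrophil precursor markers was 467292 to 603023 in bone marrow and 38916 to 56025 in small intestine, with Mpo the highest (149860.3 ± 19352 and 165 ± 26.1) and Ly6g the lowest. Of the 12, 10 were called lower in small intestine, and the sum there was almost all Retnlg (421 ± 249 and 45675 ± 7373), the 1 called higher. For 7 monocyte markers the sums were 7877 to 11032 and 1593 to 1729, with Ly6c2 the highest (8268 ± 1228 and 16.7 ± 3.79), although Ly6C was gated out, and Ms4a6c the lowest. Of the 7, 2 were called lower, Ly6c2 and F13a1, and 2 higher, Csf1r (190.1 ± 37.1 and 1301 ± 74.2) and Cx3cr1 (21.4 ± 9.93 and 56.2 ± 18.1). Neutrophil precursors and monocytes also express several of the genes described here, and their part in the bone marrow levels was not tested.

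Fcgr2b and Fcgr3 are alike enough in sequence for some reads to match both. Their sequence is treated first because the balance of these genes, inhibitory and activating, is compared further on. The stretch printed was chosen as the 150 aligned bases with the most differences. Over the 509 bases in which their coding sequences of 1020 and 801 bases aligned, Fcgr2b and Fcgr3 were identical at 491 (96.5%), while all other pairs among Fcgr1, Fcgr2b, Fcgr3 and Fcgr4 were 57.0% to 64.3% identical. Below are 150 bases of the extracellular part of both genes, 5′ to 3′ on the coding strand, read from GRCm38 by the GENCODE M21 exons. Each stretch lies within 1 exon on the minus strand, coding bases 128 to 277 of Fcgr2b (chr1:170968082-170968231) and coding bases 113 to 262 of Fcgr3 (chr1:171057793-171057942), and capitals mark the 13 bases that differ.
Fcgr2b: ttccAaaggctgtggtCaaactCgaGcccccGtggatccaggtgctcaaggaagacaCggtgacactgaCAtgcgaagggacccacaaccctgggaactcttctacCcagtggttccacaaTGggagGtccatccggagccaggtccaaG
Fcgr3: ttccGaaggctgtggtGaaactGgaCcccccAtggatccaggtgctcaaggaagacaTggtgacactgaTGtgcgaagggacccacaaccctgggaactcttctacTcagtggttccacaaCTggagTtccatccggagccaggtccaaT
Elsewhere the identity was longer, and the longest run without a difference was 129 bases. Of all windows of 75 bases, the shortest read length stated, 313 of 5768 in Fcgr2b (5.43%) and 94 of 1733 in Fcgr3 (5.42%) occurred unchanged in another gene, and all 94 of Fcgr3 occurred in Fcgr2b. How such reads were assigned is not given in the sources used here, so a small part of the counts of this pair is uncertain. Fcer1g, Fcgr1, Fcgr4, Fcgrt and Syk shared no window with another gene.

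Of the 10 genes, 7 were higher in small intestine, none was lower and 3 were not called (limma, adjusted p under 0.05 over all 38392 genes, 2-sided). Of the 3, Fcgr2b was lower at an unadjusted limma p under 0.05, and limma voom on the recovered reads called it as the 1 lower gene. The tissues differed widely, so these counts are read against all genes: 34.9% of all genes were called, 22.0% as higher and 12.9% as lower in small intestine. Among the 16308 genes that averaged 10 or more normalised reads, which include all 10 genes, 35.3% were called higher and 28.1% lower. The median difference of the 10 genes was 1.08 on the deposited log2 scale, small intestine minus bone marrow, beside 0.37 for all genes. In 8 of the 10 genes the libraries of the tissues did not overlap, with small intestine above in 7 and below in 1, while 34.3% of all genes did not overlap in either direction. The labels do not say that the libraries came from separate animals, although the methods give 4 mice per tissue, so the p-values measure the spread between these libraries. In sorted bulk RNA, fewer cells of a type and less RNA per cell cannot be told apart.

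**Figure D1:**
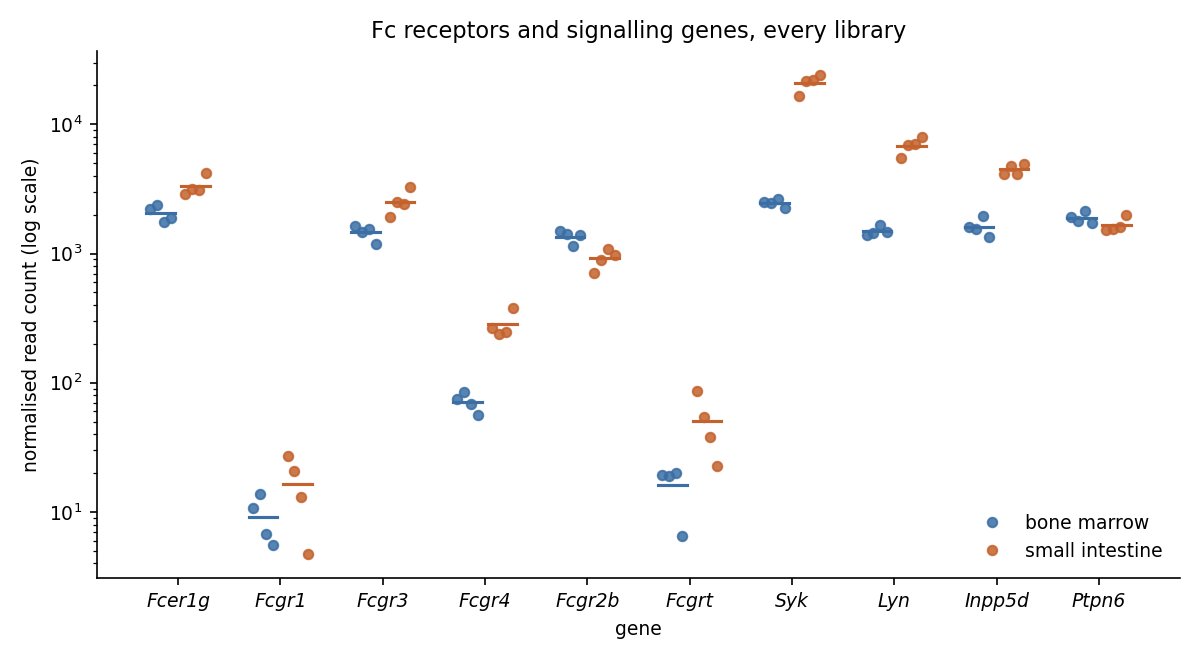
Normalised read count (log scale) of the 10 genes in each of the 4 bone marrow (blue) and 4 small intestine (orange) libraries, with a bar at the mean of each tissue. Syk, Lyn, Inpp5d and Fcgr4 separate clearly, Fcgr2b is the gene whose small intestine libraries all lie below bone marrow, and Fcgr1 and Ptpn6 overlap.

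Of the genes chosen at the outset, the shared gamma chain was the most abundant per length in both tissues. It was moderately higher in small intestine. The receptor subunits listed further on, such as Tyrobp and B2m, were not ranked per length. Fcer1g, which lies at chr1:171229572-171234365 on the minus strand of GRCm38, had normalised counts of 2225 in BM_1, 2377 in BM_3, 1756 in BM_4 and 1869.6 in BM_5, and of 2872 in SI_6, 3170.2 in SI_7, 3077 in SI_10 and 4192 in SI_11. Every small intestine library lay above every bone marrow library, with SI_11 the highest. The difference was 0.69 ± 0.21 on the log2 scale (SE, adjusted p = 0.0320 by limma, 95% interval 0.21 to 1.16), from means of 2057 ± 292 and 3328 ± 589.6 (SD, n = 4). The call was lost without BM_1 (0.73, adjusted p = 0.0541 by limma) and without BM_4 (0.62, adjusted p = 0.0839), and when libraries were centred on their medians (0.62, adjusted p = 0.0844).

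Of the activating binding chains, Fcgr4 and Fcgr3 rose and Fcgr1 was barely detected. Fcgr4 (chr1:171018920-171029761, plus strand), a receptor of intermediate affinity found in mice, had 75.1, 85.4, 67.9 and 55.8 normalised reads in BM_1, BM_3, BM_4 and BM_5 and 264, 239.9, 247 and 379 in SI_6, SI_7, SI_10 and SI_11. The tissues were far apart, the lowest small intestine library being well above the highest of bone marrow. Its mean was 3.98-fold higher in small intestine (71.1 ± 12.5 and 283 ± 65.2, SD, n = 4), a difference of 1.93 ± 0.23 (SE, limma adjusted p = 0.000281).

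Fcgr3 (chr1:171051174-171064935, minus strand) encodes the low-affinity activating receptor for IgG complexes. Its normalised counts were 1624, 1465, 1561 and 1187 in the bone marrow libraries, in the order above, and 1920.1, 2498, 2419 and 3248 in those of small intestine. All intestinal values exceeded all marrow values, and the gap between the nearest libraries was narrow. Fcgr3 was higher by 0.77 ± 0.22 (SE, limma adjusted p = 0.0266, 95% interval 0.26 to 1.28), with means of 1459 ± 193 and 2521 ± 548 (SD, n = 4). Its call was lost without BM_3 (0.78, adjusted p = 0.0525 by limma) and with libraries centred on their medians (0.71, adjusted p = 0.0730).

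The high-affinity receptor gene Fcgr1 (chr3:96282909-96293969, minus strand), commonly used as a marker of macrophages, had 104 reads over all 8 libraries. Its normalised counts were 10.7, 13.7, 6.70 and 5.58 in bone marrow and 27.3, 20.8, 13.1 and 4.74 in small intestine. The highest values were those of SI_6 and SI_7, but SI_11 was the lowest of all libraries, so the tissues overlapped. A difference was not detectable at this depth (0.55 ± 0.43, SE, limma adjusted p = 0.384, 95% interval −0.44 to 1.54). Of 12 macrophage markers, 9 were called higher in small intestine and the other 3 were not called, with sums of 842 to 1045 in bone marrow and 15069 to 18072 in small intestine. Adgre1, which eosinophils also express, was the highest of them (161 ± 22.1 and 13672 ± 1373, SD, n = 4) and Timd4 the lowest, and none was under 10 normalised reads in every library. C1qb, a complement gene of tissue macrophages picked out after its values were seen, stood at 318 in SI_6, 165 in SI_7, 93.0 in SI_10 and 164 in SI_11, against 42.8 to 71.3 in bone marrow. SI_6 was thus the highest library for both Fcgr1 and C1qb. Of the 12 macrophage markers, some were highest in SI_6 and others in another intestinal library. Adgre1 was lowest in SI_6 among the intestinal libraries (12445), and the macrophage sum was highest in SI_11 (18072), where Fcgr1 was lowest. Most of that sum was Adgre1 (15498 in SI_11), so its order over the libraries is largely that of Adgre1 and not of the other macrophage markers. The part of other cells in the Fcgr1 and Fcgr4 reads was not tested.

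The inhibitory receptor went the other way, without passing the threshold. Fcgr2b (chr1:170958617-170976547, minus strand) had normalised counts of 1486 in BM_1, 1409.9 in BM_3, 1135 in BM_4 and 1385 in BM_5, and of 707 in SI_6, 888 in SI_7, 1088 in SI_10 and 981 in SI_11. Every small intestine library was below every bone marrow library, but SI_10 and BM_4 were close. The mean in small intestine was 0.677 of that in bone marrow (916 ± 162 and 1354 ± 152, SD, n = 4), and the difference of −0.57 ± 0.21 (SE, 95% interval −1.05 to −0.10) had a limma p of 0.0236 and an adjusted p of 0.0630. The call depended on the test. It passed with limma voom on the recovered reads (adjusted p = 0.00363), with a prior that follows the mean level (adjusted p = 0.00312) and, in the limma fit without SI_10, at −0.66 (adjusted p = 0.0215).

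B cells express Fcgr2b as their main Fc receptor. Of 8 B cell markers, 2 were called lower (among them Cd79b, 152 ± 35.1 and 22.9 ± 11.4 normalised reads, SD, n = 4) and 1 higher (Cd22, 15.7 ± 6.64 and 688 ± 135, the highest of the list). Their sums were 426 to 698 in bone marrow and 733 to 1061 in small intestine, Blk was the lowest, and the part of B cells in the Fcgr2b counts was not tested. Fcgr2b also shares exon bases with the gene Gm38204 on the opposite strand, which never exceeded 15.3 normalised reads. A further 123 of its windows matched Cplx2, which never exceeded 40.4.

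Fcgrt (chr7:45092990-45103851, minus strand), the neonatal Fc receptor, was low in both tissues. Its normalised counts were 19.2, 18.9, 20.1 and 6.51 in bone marrow and 86.2, 54.1, 38.3 and 22.5 in small intestine. The intestinal libraries all lay above bone marrow, but they spread almost as widely among themselves as the tissues differed, with SI_6 the highest and SI_11 close to bone marrow. A limma difference of 1.39 ± 0.44 (SE, adjusted p = 0.0383, 95% interval 0.39 to 2.39) corresponded to a 3.11-fold ratio of means (16.2 ± 6.46 and 50.3 ± 27.2, SD, n = 4), since the deposited scale compresses low counts. The call was lost in 7 of the 8 fits that left out 1 library and held only without SI_11 (limma adjusted p = 0.0187 to 0.105 over the 8).

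Intestinal epithelium is known for Fcgrt, so epithelial markers are given beside it. All 8 were called higher in small intestine, with sums of 56.5 to 99.6 in bone marrow and of 18309.9 in SI_6, 7539.9 in SI_7, 2817 in SI_10 and 3356 in SI_11. Krt19 was the highest and Cldn7 the lowest of them, and none was under 10 in every library. Libraries SI_6 and SI_7 led both Fcgrt and the epithelial sum, whereas the lowest intestinal library was SI_11 for Fcgrt and SI_10 for the sum. The part of epithelial cells in the Fcgrt reads was not tested. Endothelial cells also use this receptor, and all 6 endothelial markers were called higher in small intestine, with sums of 378 to 494 and 7394 to 9838, and Cldn5 under 10 normalised reads in every library. Most of these sums was Pecam1 (384 ± 64.0 and 8162 ± 1127, SD, n = 4), which leukocytes also express.

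**Figure D2:**
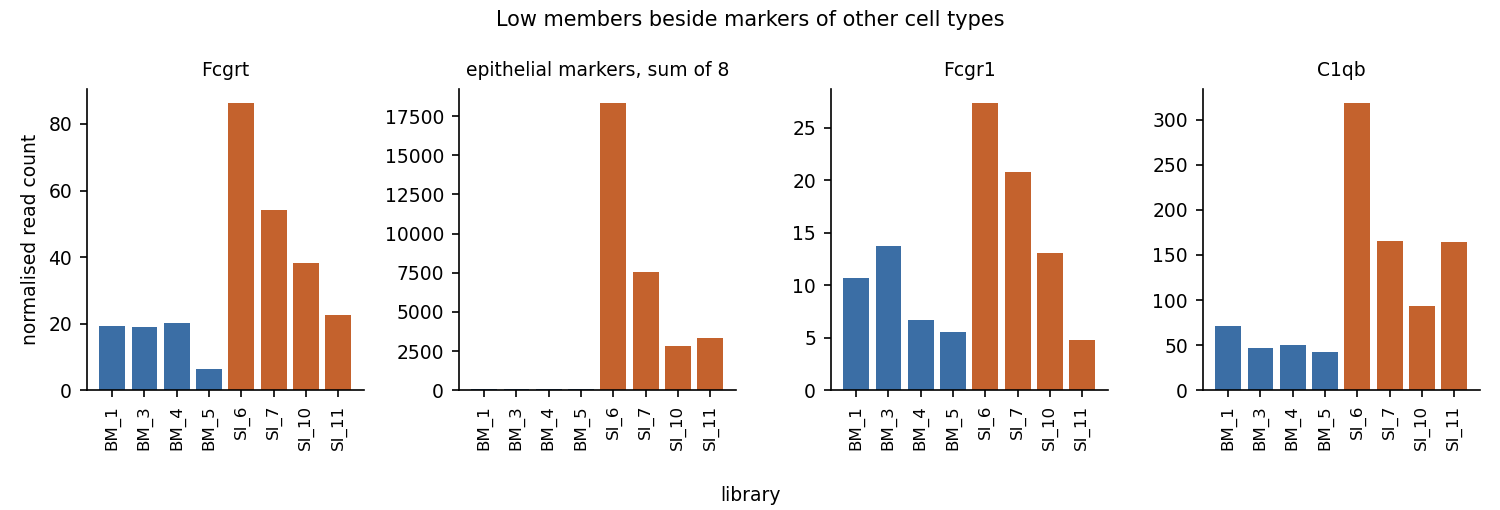
Normalised read count in each library of Fcgrt, of the sum of 8 epithelial markers, of Fcgr1 and of the macrophage gene C1qb, with bone marrow in blue, small intestine in orange and a separate axis from 0 for each panel. SI_6 is the highest library in all 4 panels, and SI_11 is the lowest small intestine library for Fcgrt and Fcgr1. The sum of the macrophage markers, not shown, is highest in SI_11, and most of it is Adgre1, which eosinophils also express.

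The kinases rose most of the 10 genes. Syk (chr13:52583173-52648792, plus strand), the kinase that docks on phosphorylated ITAMs, had normalised counts of 2511 in BM_1, 2459 in BM_3, 2656 in BM_4 and 2243 in BM_5, and of 16426 in SI_6, 21752 in SI_7, 21835 in SI_10 and 24195 in SI_11. Bone marrow libraries were nearly level, and all 4 intestinal libraries lay far above them. The mean was 8.53-fold higher in small intestine (2467 ± 171 and 21052 ± 3286, SD, n = 4), a difference of 3.08 ± 0.19 (SE, limma adjusted p = 9.21e-06, 95% interval 2.64 to 3.52).

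Lyn (chr4:3678115-3813122, plus strand) encodes a SRC family kinase that phosphorylates both activating and inhibitory receptor motifs. Its normalised counts were 1389, 1445, 1677 and 1467 in bone marrow and 5476, 6859, 7034 and 7984 in small intestine, in the same library order. Again the groups were widely separated, and SI_6 was the lowest and SI_11 the highest intestinal library, as for Syk. Lyn was 4.58-fold higher in small intestine (1494 ± 126 and 6838 ± 1034, SD, n = 4), a difference of 2.18 ± 0.19 (SE, limma adjusted p = 5.35e-05). Of its 75-base windows 14.4% occurred in another gene, mostly in Gm11787, whose level never exceeded 48.1 normalised reads. Lyn also shares exon bases with Gm26857 on the opposite strand, which was not analysed here.

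The 2 phosphatases differed from each other. Inpp5d (chr1:87620312-87720507, plus strand), whose product SHIP1 removes a phosphate from a signalling lipid of the membrane, had 1604, 1559, 1937 and 1354 normalised reads in bone marrow and 4144, 4773, 4108 and 4966 in small intestine. No library of one tissue came near the other tissue. It was 2.79-fold higher in small intestine (1613 ± 242 and 4498 ± 437, SD, n = 4), a difference of 1.48 ± 0.19 (SE, limma adjusted p = 0.000448).

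Ptpn6 (chr6:124720707-124738714, minus strand), the gene of the tyrosine phosphatase SHP1, had 1908, 1783, 2150.2 and 1727 normalised reads in bone marrow and 1525, 1545, 1604 and 1994 in small intestine. SI_11 lay within the bone marrow range, and the other intestinal libraries were just below it. The difference was −0.19 ± 0.19 (SE, limma adjusted p = 0.476), and its 95% interval of −0.61 to 0.24 leaves room for a modest fall. Of its windows 4.07% were shared with Gm20531 on the opposite strand, which never exceeded 17.8 normalised reads.

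Syk, Lyn, Inpp5d and Fcgr4 were called in all 13 alternative fits with the same null hypothesis. When a difference of at least 1 on the log2 scale was required, 3 of them, Syk, Lyn and Fcgr4, passed. The choice of scaling mattered for the smaller differences. Quantile normalisation moved the median difference of all genes from 0.37 to −0.03, and under it Fcer1g stood at 0.34 (limma adjusted p = 0.154), Fcgrt at 0.79 (0.293), Fcgr2b at −0.70 (0.0198) and Ptpn6 at −0.45 (0.0357). With limma voom the median of all genes was 0.89, and Fcer1g stood at 0.66, Fcgr3 at 0.76 and Fcgr1 at 0.62.

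**Figure D3:**
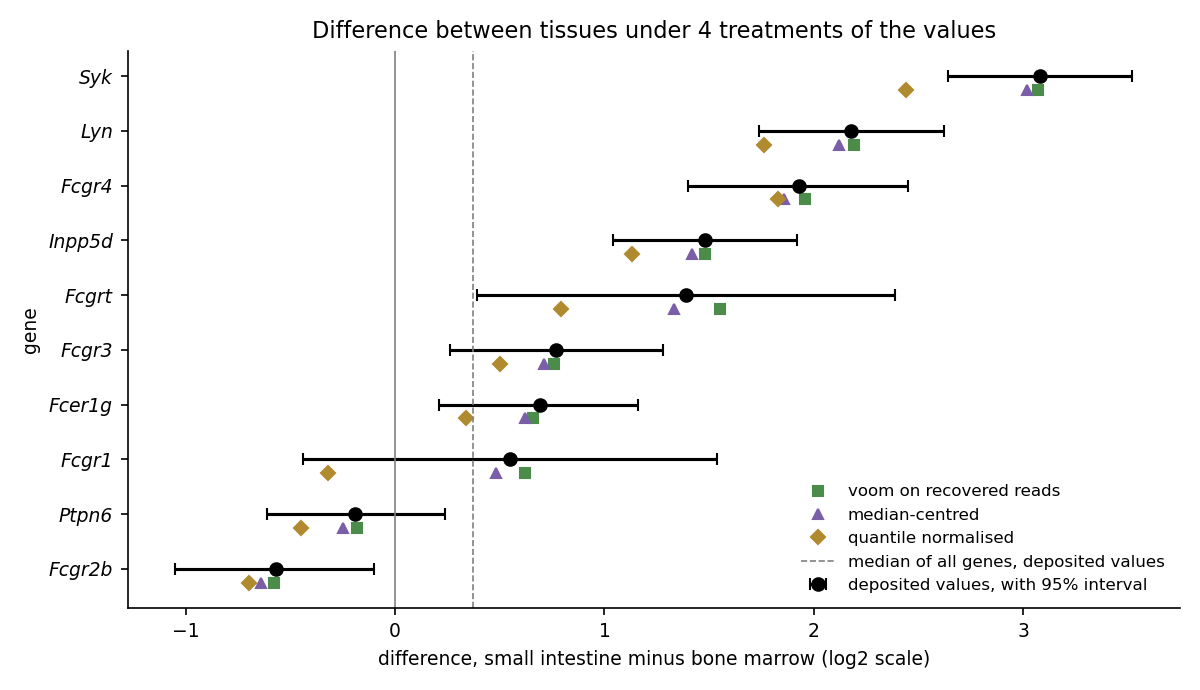
Difference between the tissues (small intestine minus bone marrow, log2 scale) of each of the 10 genes, with black circles and 95% intervals for limma on the deposited values, and green squares, purple triangles and yellow diamonds for voom, median-centred and quantile-normalised values. The dashed line is the median of all genes (0.37), and quantile normalisation gives the lowest value for every gene shown, with Fcgr1 below 0.

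Levels can be compared between genes only per length, here as normalised reads per kilobase of annotated exon. In bone marrow the order was Fcer1g (2353 ± 335, SD, n = 4), Fcgr3 (841 ± 111), Ptpn6 (675 ± 67.1), Lyn (367 ± 30.9), Syk (264 ± 18.3), Fcgr2b (234 ± 26.3), Inpp5d (212 ± 31.8), Fcgr4 (56.6 ± 9.92), Fcgrt (7.69 ± 3.07) and Fcgr1 (3.54 ± 1.44). The ranges of Fcgr3 and Ptpn6, of Syk and Fcgr2b, of Fcgr2b and Inpp5d, and of Fcgrt and Fcgr1 overlapped. Such overlap does not show that these neighbours were level, because the genes were not compared within each library.

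In small intestine the order was Fcer1g (3808 ± 675 normalised reads per kilobase, SD, n = 4), Syk (2249 ± 351), Lyn (1679 ± 254), Fcgr3 (1452 ± 316), Ptpn6 (595 ± 78.7), Inpp5d (592 ± 57.5), Fcgr4 (225 ± 51.9), Fcgr2b (158 ± 27.9), Fcgrt (23.9 ± 12.9) and Fcgr1 (6.37 ± 3.76). Here Syk and Lyn, Lyn and Fcgr3, and Ptpn6 and Inpp5d overlapped. Fcer1g led in both tissues and Fcgrt and Fcgr1 came last in both. The kinases stood below Fcgr3 and Ptpn6 in bone marrow, whereas in small intestine both stood above Ptpn6, and Fcgr4 passed Fcgr2b.

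The balance of activating and inhibitory parts was compared as ratios of normalised counts within each library, in which the scaling of the library cancels. The tested log2 ratios added 1 to each count, so that scaling keeps a small effect, mainly where a count is low, as for Fcgrt. These are ratios of reads, not corrected for gene length, so only their change between the tissues is compared. Fcgr3 over Fcgr2b was 1.09 in BM_1, 1.04 in BM_3, 1.38 in BM_4 and 0.857 in BM_5, and 2.71 in SI_6, 2.81 in SI_7, 2.22 in SI_10 and 3.31 in SI_11. The ratio was near 1 in bone marrow and above that in every intestinal library, with SI_10 the lowest and SI_11 the highest of these. On the log2 scale this ratio rose from 0.11 ± 0.28 to 1.45 ± 0.24 (mean ± SD, n = 4, exact 2-sided permutation p = 0.0286, 0.0429 adjusted over 6 ratios), where 0.0286 is the smallest p that the 70 assignments of the libraries allow. Every intestinal library lay above bone marrow for Fcgr3 and below it for Fcgr2b. The p-value of their ratio therefore follows from the single genes and is no separate evidence.

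Fcgr4 over Fcgr2b was 0.0403 to 0.0606 in bone marrow and 0.227 to 0.386 in small intestine. The ratio was thus higher in every intestinal library than in any of bone marrow, and on the log2 scale it rose by 2.54 (exact permutation p = 0.0286, adjusted 0.0429, n = 4). This p-value, too, follows from the separation of Fcgr4 and of Fcgr2b taken singly. Fcer1g to Fcgr3, the shared chain against a chain that pairs with it, was 0.49 ± 0.24 and 0.41 ± 0.11 on the log2 scale (SD, exact permutation p = 0.571, adjusted 0.571, n = 4). The ranges of this ratio overlapped between the tissues.

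Downstream, the kinase transcripts gained on those of the phosphatases. The log2 ratio of Syk to Inpp5d was 0.65, 0.66, 0.46 and 0.73 in bone marrow and 1.99, 2.19, 2.41 and 2.28 in small intestine, a rise of 1.60 (exact permutation p = 0.0286, adjusted 0.0429, n = 4). That of Lyn to Ptpn6 was −0.46, −0.30, −0.36 and −0.24 in bone marrow and 1.84 to 2.15 in small intestine, a rise of 2.37 with the same p-values (exact permutation, n = 4). Both ratios were narrow within a tissue and far apart between the tissues. Fcgrt to its partner B2m overlapped between the tissues (−10.30 ± 0.62 and −9.13 ± 0.98, SD, exact permutation p = 0.114, adjusted 0.137, n = 4).

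**Figure D4:**
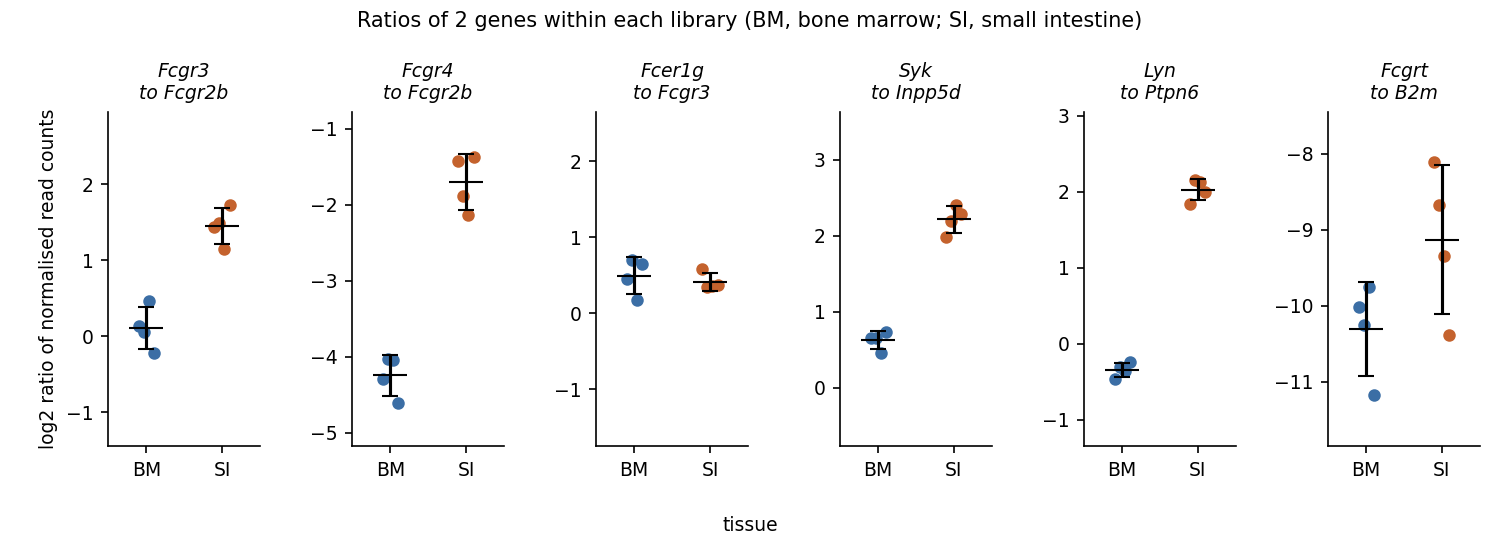
Log2 ratio of the normalised counts of 2 genes within each library, for 6 pairs, with 4 bone marrow (blue) and 4 small intestine (orange) libraries and bars for mean ± SD, where the vertical axes start at different values and have the same span. The tissues separate for 4 pairs and overlap for Fcer1g to Fcgr3 and Fcgrt to B2m.

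Among the receptor genes, Fcgr2b, Fcgr4, Fcgr3 and Fcer1g lie in this order on chromosome 1, between positions 170958617 and 171234365 of GRCm38. Their differences were unlike along this stretch, at −0.57, 1.93, 0.77 and 0.69 in that order on the log2 scale. The Fc receptor-like genes Fcrlb and Fcrla, which precede Fcgr2b between positions 170907273 and 170927583, were low and not called. Fcrlb had 1.84 ± 2.24 and 7.72 ± 7.31 normalised reads (SD, n = 4, difference 1.30, limma adjusted p = 0.182) and Fcrla 21.7 ± 5.97 and 15.8 ± 1.30 (difference −0.36, adjusted p = 0.243).

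The wider pathway was described by 72 further genes in 4 lists, of which 39 were called higher, 10 lower and 23 not called, with a median difference of 1.04. Of the 72, 65 averaged 10 or more normalised reads, and the counts are to be read against the shares of all genes given above, 22.0% higher and 12.9% lower, or 35.3% and 28.1% among genes at that level. The shares called lower in the lists of downstream adaptors and of negative regulators, and the share called higher among the receptor subunits, are not far from these. Among 16 other Fc and ITAM receptor subunits, 7 were called higher, 1 lower and 8 not called, with a median difference of 0.71. Tyrobp, the ITAM adaptor DAP12, rose (2393 ± 361 and 9213 ± 2402 normalised reads, SD, n = 4, difference 1.92 ± 0.24, SE, limma adjusted p = 0.000349). Like Fcer1g it signals through Syk. Cd247, the T cell receptor zeta chain with its ITAMs, was also called higher and was low in both tissues (10.8 ± 3.97 and 26.1 ± 6.59, difference 1.06 ± 0.28, adjusted p = 0.0164), and 8 T cell and NK cell markers summed to 23.0 to 57.6 in bone marrow and 34.4 to 81.0 in small intestine, Cd3e being the highest, and Ncr1 and Prf1, the lowest, being under 10 in every library.

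The largest rises in this list were in receptors outside the classical Fc gamma group. Pigr, the receptor that carries polymeric immunoglobulin across epithelium, was nearly absent from bone marrow (0.957 to 11.2 normalised reads) and had 11776 in SI_6, 5113 in SI_7, 1729.5 in SI_10 and 1786 in SI_11 (difference 9.09 ± 0.70, SE, limma adjusted p = 2.58e-05). The intestinal libraries ranked in the same order for Pigr as for the epithelial marker sum given above, and the part of epithelial cells was not tested. Fcrls, an Fc receptor-like scavenger receptor known from microglia, rose from 0.766 to 5.58 normalised reads in bone marrow to 537 to 704 in small intestine (difference 6.90 ± 0.32, adjusted p = 2.19e-06 by limma). Unlike Pigr it was even across the intestinal libraries.

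Fcrl1, best known as a B cell receptor, rose from 3.83 to 19.5 normalised reads in bone marrow to 139.7 to 266 in small intestine (difference 4.16 ± 0.38, SE, limma adjusted p = 6.93e-05). B cell markers went both ways, as given above, and the part of B cells was not tested. Fcamr, a receptor for IgA and IgM, and Fcrl5 overlapped between the tissues and had few reads. Fcamr was listed at 0 in 3 bone marrow libraries and at 4.65 in BM_5, and at 30.6, 30.5, 5.47 and 3.56 in SI_6, SI_7, SI_10 and SI_11 (difference 2.58 ± 0.70, SE, limma adjusted p = 0.0205). Fcrl5 had at most 8.37 normalised reads in bone marrow and 4.74 to 25.2 in small intestine (1.95 ± 0.65, adjusted p = 0.0463). Both calls were lost in several fits that left out 1 library.

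The subunits of the high-affinity IgE receptor other than the gamma chain did not follow Fcer1g. Ms4a2, the beta chain, fell from 119.5, 92.0, 89.0 and 82.7 normalised reads in bone marrow to 7.64, 1.39, 4.38 and 3.56 in small intestine (difference −3.79 ± 0.30, SE, limma adjusted p = 2.93e-05). Fcer1a, the IgE-binding alpha chain, stayed at most at 4.65 in any library and was not called. Basophils and mast cells carry the complete receptor. Of 9 mast cell and basophil markers, 4 were called lower and 2 higher, among the lower the basophil proteases Mcpt8 (109 ± 21.3 and 2.46 ± 3.61, SD, n = 4) and Prss34 (45.4 ± 8.37 and 1.37 ± 2.07), and Cpa3, a protease of mast cells and basophils (37.9 ± 13.3 and 13.9 ± 6.14), while the mast cell proteases Mcpt4, Tpsb2 and Cma1 were under 10 in every library. Hdc was 1 of the 2 called higher (2441 ± 298 and 11509.5 ± 3165). The sums of the 9 markers were 4799.9 to 6461 in bone marrow and 8404 to 16983 in small intestine. In small intestine the sums were mostly Hdc, and Mcpt4 was the lowest marker of the list. The part of basophils in the Ms4a2 reads was not tested.

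The remaining subunits were not called. They were Fcer2a, the low-affinity IgE receptor (difference −0.07), Fcmr, the IgM receptor (−0.36), Hcst, the adaptor DAP10 (−0.07), Trim21, the cytosolic antibody receptor, which lay below bone marrow in every intestinal library (263 ± 31.2 and 166 ± 46.7 normalised reads, SD, n = 4, difference −0.69, limma adjusted p = 0.0699), and B2m (20185 ± 3033 and 25895 ± 3942, difference 0.36, adjusted p = 0.214).

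Among 13 other kinases, those of the SRC, TEC and SYK families and the inhibitory kinase Csk, 8 were called higher and none lower. Csk was among the 8, and the median difference was 2.43, the highest of the 4 lists. The count of lower kinases was also 0 by limma voom, and at an unadjusted limma p under 0.05 it was 1, Blk. Rises among the largest were in Yes1, a SRC family member (18.1 ± 11.1 and 407 ± 91.7 normalised reads, SD, n = 4, difference 4.36 ± 0.38, SE, limma adjusted p = 4.85e-05), and in Tec, the founding member of the TEC family (459 ± 57.3 and 3834 ± 1101, difference 3.01 ± 0.26, adjusted p = 5.22e-05). Syk and Lyn rose, as did most of the 13 kinases of this list, which were not counted by family.

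Of the 27 adaptors and effectors downstream of Syk, 16 were called higher, 5 lower and 6 not called, with a median difference of 0.77. Exchange factors of the Vav family, which activate Rac, moved in opposite directions. Vav2 rose from 52.2 ± 13.4 to 842 ± 136 normalised reads (SD, n = 4, difference 3.94 ± 0.24, SE, limma adjusted p = 8.40e-06), and Vav1, the family member typical of blood cells, fell from 1885 ± 72.9 to 439.9 ± 37.8 (−2.09 ± 0.17, adjusted p = 3.36e-05). The next largest rises were in Pik3ap1, an adaptor of phosphoinositide kinases (791 ± 84.4 and 9969 ± 1752, difference 3.64 ± 0.20, adjusted p = 4.65e-06), and Nfatc2, a transcription factor switched on by calcium (48.0 ± 6.25 and 636 ± 96.4, difference 3.62 ± 0.20, adjusted p = 4.91e-06). The other large falls were in Card9, an adaptor between Syk and NF-kappaB (755 ± 24.6 and 319 ± 23.3, difference −1.24 ± 0.17, adjusted p = 0.000554), and Rac2, a GTPase of the phagocyte oxidase (12035 ± 1144 and 5405 ± 839, difference −1.16 ± 0.20, adjusted p = 0.00182).

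Of the 16 other negative regulators, 8 were called higher, 4 lower and 4 not called, with a median difference of 0.81. Dok2, an adaptor that dampens Ras signalling, rose from 160.3 ± 12.7 to 3376 ± 809 normalised reads (SD, n = 4, difference 4.34 ± 0.22, SE, limma adjusted p = 3.36e-06), and Inppl1, the relative of Inpp5d that encodes SHIP2, rose from 7.93 ± 4.24 to 114 ± 78.4 (3.22 ± 0.50, adjusted p = 0.00119). Inppl1 was highest in SI_6 (222) and lowest in SI_11 (46.2), and it is widely expressed outside blood cells. Ptprc encodes CD45, a phosphatase that both restrains and primes SRC family kinases, and was 9.54-fold higher in small intestine (5067 ± 119 and 48344 ± 5439.7, difference 3.25 ± 0.17, adjusted p = 4.12e-06). The falls were led by Ubash3a, a phosphatase-like suppressor of T cell receptor signalling (635 ± 77.9 and 33.6 ± 12.6, difference −4.16 ± 0.29, adjusted p = 1.47e-05), Pag1, the membrane anchor of the inhibitory kinase Csk (843 ± 71.8 and 405 ± 52.6, difference −1.06 ± 0.18, adjusted p = 0.00217), and Ptpn11, the relative of Ptpn6 that encodes SHP2 (1428 ± 44.7 and 777 ± 53.6, difference −0.88 ± 0.17, adjusted p = 0.00336).

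**Figure D5:**
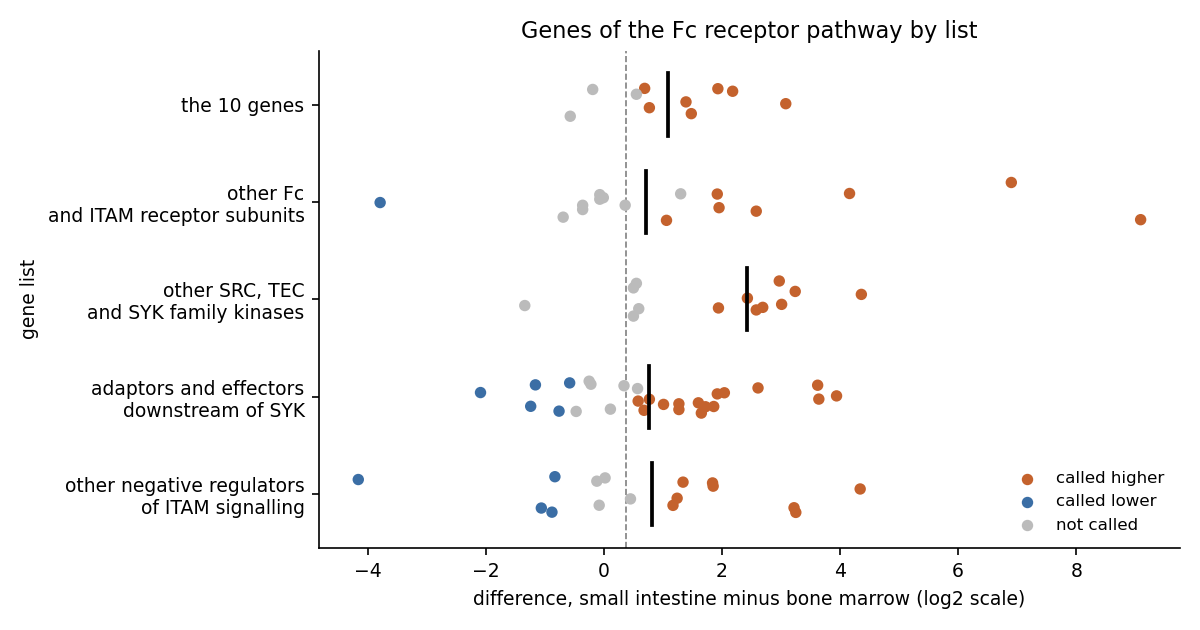
Difference between the tissues (small intestine minus bone marrow, log2 scale) of every gene of the 10 and of the 4 pathway lists, 1 point a gene, orange when called higher, blue when called lower and grey when not called, with a black bar at the median of each list and a dashed line at the median of all genes (0.37). The kinase list has the highest median (2.43), and the 2 lowest points are Ubash3a and Ms4a2.

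Of the 2 immune cell lists not yet given, 8 dendritic cell markers, a cell type rich in Fc receptors, summed to 494 to 646 in bone marrow and 15256 to 23381 in small intestine. Of them 6 were called higher and 1 lower, Itgax, which other myeloid cells share, was the highest, and Xcr1 was the lowest. The 6 plasma cell markers summed to 2545 to 3064 and 1409 to 3830.3, with Xbp1 the highest and Tnfrsf17 under 10 in every library. Of these, 3 were called higher, Jchain (14.7 ± 10.1 and 1471 ± 965 normalised reads, SD, n = 4), Sdc1 and Derl3, and 1 lower, Xbp1 itself (2733 ± 241 and 1120.5 ± 205). Their part in the levels of the 10 genes was not tested.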

How the data were processed

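Libraries were built on amplified cDNA and sequenced as single-end reads. The authors processed the reads with nf-core/rnaseq against GRCm38 (Ensembl annotation) and deposited values of the variance-stabilising transformation of DESeq2 (R 4.0.3, per the labels), on a log2 scale. For the aligner, the strand setting and reads matching several genes, the settings were not given in the sources used here. The closed form of the transformation was inverted from the lowest deposited value, 0.93, and, multiplied by a size factor of 0.721 to 1.53 per library, 100.0% of values were whole reads within 0.05. Column names gave the tissue but matched no single sample, so libraries carry their column names. No pair of libraries agreed within counting noise.

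Genes were compared with limma 3.58.1 (R 4.3.3) on the deposited log2 values of all 8 libraries, without covariates or a filter and with a prior constant over genes, 2-sided, with Benjamini-Hochberg adjustment over 38392 genes. The fit was also tested on simulated data, and most false calls there fell in genes averaging under 10 reads. Calls in such genes are therefore less secure, here Fcamr, Fcrl5, the markers Cldn5 and Xcr1, and many of all genes called. DESeq2 was the authors' model, and limma took its place because of the unit. Alternatives were a prior that follows the mean, limma voom on recovered reads, other scalings, a minimum mean of 10, a tested difference of at least 1, and leaving out each library. Ratios used log2(count + 1) and exact permutation tests. All 38392 gene identifiers were found in GENCODE M21 (GRCm38), which gave positions and exon lengths. Other steps used Python 3.11.15, numpy 2.4.6, pandas 2.3.3, scipy 1.17.1, biopython 1.88 and matplotlib 3.10.9. The genes, pathway lists and marker lists were chosen with earlier results of these data known. Named were all 10 genes, all other receptor subunits, the 3 largest called rises and falls of each other pathway list, the highest and lowest gene of each marker list, and Siglecf, Ccr3, Epx and Prg2. Of the genes analysed, 2 are not reported here by name. C1qb, Retnlg, F13a1, Csf1r, Cx3cr1, Jchain, Sdc1, Derl3, Cpa3, Mcpt8, Prss34, Tpsb2, Cma1, Ncr1, Cd79b and Csk were named after their values were seen.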

Additional observations from a re-analysis of the deposited data

Results flagged for a closer look

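Within a tissue, 1 library stood apart from the other 3 in 5 of 114 sets of 4 libraries examined, by a gap to the nearest library that was larger, as a share of the whole range, than Dixon's 95% critical value, and chance gives about 1 in 20, or 5.70 sets. In bone marrow, BM_5 was the lowest library for Fcgrt (6.51 normalised reads, gap 0.941 of the range) and for the sum of the macrophage markers (842, gap 0.902), and the highest for Fcamr (4.65, gap 1, as the other libraries were at 0). In small intestine, SI_7 was the lowest for Fcrla (13.9, gap 0.924), and SI_6 was the highest for the log2 ratio of Fcer1g to Fcgr3 (0.58, gap 0.897).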

How the results depend on the processing

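No paired analysis was possible because the replicate numbers of the tissues do not overlap in the labels. Of the 10 genes, 3 were called higher when a difference of at least 1 was tested. The count of genes called lower was 1 with the mean-following prior, 1 with voom, 2 with quantile normalisation and 1 with a minimum mean of 10. Leaving out each library gave 5 to 7 higher and 0 to 1 lower, the 1 being Fcgr2b without SI_10. Of the other receptor subunits, 4 were higher under quantile normalisation, and 2 were lower with the mean-following prior, 2 with voom, 2 with median-centred libraries, 5 with quantile normalisation, 2 with the minimum mean and 1 to 2 without single libraries (2 without SI_6 or SI_10). A lower kinase was called with quantile normalisation (1) and without SI_6 (1, range 0 to 1). The cause of these changes was not tested.

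Direction turned, in genes that were not called, under quantile normalisation for Fcgr1 (−0.32) and B2m (−0.44), with voom for Fcer1a (0.10), and without single libraries for Fcer1a (−0.44 to 0.41, with 0.16 without BM_3, 0.26 without BM_5, 0.41 without SI_6, 0.01 without SI_7), Fcer2a (−0.24 to 0.05, with 0.02 without BM_3, 0.05 without BM_5) and Hcst (−0.20 to 0.03, with 0.03 without SI_6 and 0.03 without SI_7). Of the called genes, 4 of 7 and, among the named pathway genes, 19 of 22 were called in every alternative with the same null hypothesis; Fcamr, Fcrl5 and Cd247 (0.28 under quantile normalisation) were not. The number of all genes called ranged from 10982 to 15311, and was 5076 with a tested difference of at least 1. All 6 ratios kept their direction in the alternatives run. They kept their side of the threshold with the other pseudocounts and with the difference of deposited values. Without single libraries only the size of the change was computed, and no p-value was obtained. Few reads limit Fcgr1, Fcgrt, Fcamr, Fcrl5, Fcrlb and Fcer1a.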
